A study of Mus musculus with 18 samples.

Results

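Described here are 9 genes of prostaglandin synthesis, breakdown and reception, Ptgs1, Ptgs2, Ptges, Ptgds, Ptgis, Hpgd, Ptger2, Ptger3 and Ptger4, chosen by name from the 18667 gene names of the tables. Each was taken from the row carrying its symbol, and where a symbol had several rows, from the row with the highest mean over the 6 group values. The mice were C57BL/6 by the labels and C57BL/6N by the methods, 3 months old, and all had received an rAAV into the dorsal horn: rAAV-LacZ as the control, rAAV-HDAC4 wt for the wild-type histone deacetylase HDAC4, or rAAV-HDAC4 3SA for a mutant that cannot leave the nucleus. They were given saline or CFA (complete Freund's adjuvant, which causes a lasting inflammation) into a hindpaw, and dorsal spinal tissue was taken 24 h later from 3 mice in each of the 6 groups, 18 mice in all. The construct scheme of the study gives LacZ under a CMV promoter and both HDAC4 forms under the neuronal Syn promoter, so transgene and promoter cannot be told apart between the control and the HDAC4 mice, and no group lacked a vector.

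Prostaglandins are made from arachidonic acid that phospholipases free from membranes. The cyclooxygenases COX-1 (Ptgs1) and COX-2 (Ptgs2) turn it into prostaglandin H2, and terminal synthases then give the single products: microsomal prostaglandin E synthase-1 (Ptges) makes PGE2, lipocalin-type prostaglandin D synthase (Ptgds) makes PGD2, and prostacyclin synthase (Ptgis) makes prostacyclin. Hpgd encodes 15-hydroxyprostaglandin dehydrogenase, which starts the breakdown of PGE2. PGE2 acts through EP receptors, of which EP2 (Ptger2) and EP4 (Ptger4) raise cyclic AMP and EP3 (Ptger3) mostly lowers it. In the dorsal horn of the spinal cord, where sensory fibres for pain end, COX-2 is induced by peripheral inflammation, and PGE2 acting on EP2 weakens glycinergic inhibition.

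Each gene has 1 value per group, a Cuffdiff estimate over 3 mice in FPKM, a read count divided by transcript length and by the size of the library. There is no value per mouse, so no SD, interval or test across mice could be computed, Cuffdiff's own test was not used, and the depth per library is unknown. A difference is given below as the log2 of CFA over saline after 0.1 FPKM was added to each value, and it was counted as higher or lower when it passed 0.5 in either direction, the fold threshold of the study's methods. The count is read beside the share of all loci past the same threshold. Each vector was normalized in its own table, so levels across vectors are a description.

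Within each group the tissue carried the markers of its label. All 8 neuronal markers, among them Snap25, Slc17a6, Slc32a1 and Gad1, were present in every group, and their sum lay between 982 and 1722 FPKM. The libraries also held RNA of Schwann cells, the myelinating cells of nerve roots, with a sum of 8 markers from 871 to 1567 FPKM. In the HDAC4 groups the microglial markers stood far above the rAAV-LacZ groups: the sum of 9 markers was 169 FPKM in rAAV-LacZ saline mice, 862 FPKM in rAAV-HDAC4 wt saline mice and 657 FPKM in rAAV-HDAC4 3SA saline mice. In bulk tissue, fewer cells of a type and less RNA per cell cannot be told apart, and this holds for every value below.

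The start regions of 3 genes are printed because they set the inducible cyclooxygenase, which was higher after CFA in every vector, beside the member with the largest difference in rAAV-LacZ mice and beside the constitutive cyclooxygenase. RefSeq promoter windows (GRCm38.p6) were found for 8 of the 9 members, all but Ptgis. Printed are the 250 bases before the start, 5′ to 3′ in the direction of the gene. Capitals mark matches to a searched motif: the cyclic AMP response element half-site TGACG, the E-box CACGTG, the C/EBP palindrome TTGCNNAA, the TATA box TATAAA, and the MEF2 and NF-kB consensus motifs, each on both strands. Ptgs2 lies at chr1:150099781-150100030 on the plus strand, Ptgds at chr2:25469750-25469999 on the minus strand and Ptgs1 at chr2:36230176-36230425 on the plus strand.
Ptgs2: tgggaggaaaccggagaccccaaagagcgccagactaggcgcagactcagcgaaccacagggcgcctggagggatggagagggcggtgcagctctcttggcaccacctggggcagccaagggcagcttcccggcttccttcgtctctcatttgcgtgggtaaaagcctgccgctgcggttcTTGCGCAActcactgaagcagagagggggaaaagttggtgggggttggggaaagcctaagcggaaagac
Ptgds: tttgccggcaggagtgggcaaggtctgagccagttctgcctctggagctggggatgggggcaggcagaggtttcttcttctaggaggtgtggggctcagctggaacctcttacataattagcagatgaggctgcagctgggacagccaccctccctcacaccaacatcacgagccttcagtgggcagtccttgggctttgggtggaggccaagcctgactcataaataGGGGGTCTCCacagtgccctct
Ptgs1: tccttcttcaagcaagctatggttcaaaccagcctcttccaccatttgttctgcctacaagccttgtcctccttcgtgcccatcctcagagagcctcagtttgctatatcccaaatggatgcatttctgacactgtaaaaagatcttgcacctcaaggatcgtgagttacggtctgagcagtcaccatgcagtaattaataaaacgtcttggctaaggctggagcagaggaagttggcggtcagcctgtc
A further 30 bases of Ptgs2, from base 4 to base 33 counted from the annotated start (chr1:150100034-150100063), hold a half-site on the reverse strand that overlaps an E-box by 2 bases.
Ptgs2, from the start: gtcaccactaCGTCACGTGgagtccgcttt

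Among these windows of 300 bases, which run 50 bases past the start, Ptgs2 was the 1 member of the 8 with a cyclic AMP response element half-site, found in 21.0% of all 27025 promoter windows, and the 1 with an E-box, found in 7.24%. Its C/EBP palindrome, 69 to 62 bases before the start, has matches in 10.8% of windows, and Ptger2 also carried one, at bases 40 to 47 counted from the start. The Ptgds window held an NF-kB match 22 to 13 bases before the start, as did 8.18% of windows, and the Ptgs1 window matched none of the 6 motifs. No member window matched the MEF2 consensus (3.26% of windows), the motif of the factors that class IIa histone deacetylases bind. The letters TATAAA were found for Hpgd alone among the members and in 14.2% of windows. The Hpgd match lies at bases 5 to 10 counted from the start, so past the start and not before it. These matches describe the letters of the windows and not binding.

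The members differed widely in level. Ptgds was the most abundant, with a mean of 395 FPKM over the 6 groups and 98.9% of all gene names below it even in its lowest group, rAAV-LacZ saline. Hpgd followed with 10.8 FPKM, Ptgs1 with 4.09 FPKM, Ptger4 with 2.65 FPKM, Ptges with 2.40 FPKM, Ptgis with 1.64 FPKM, Ptger3 with 1.53 FPKM, Ptgs2 with 0.911 FPKM and Ptger2 with 0.850 FPKM. Taking the range over the 6 groups as the spread, Ptgds and Hpgd stood apart from their neighbours in this order, whereas every other neighbouring pair had overlapping ranges. Ptgs2, the best known inducible gene of the set, was thus among the least abundant, and 15.9% to 26.3% of gene names lay below it in any group. The exon bases inside the deposited locus were 96.1% to 100% of the annotated ones for 6 members, 92.1% for Ptgis, 65.3% for Ptger3 and 64.1% for Ptger2, with all coding bases inside for every member but Ptgis (90.1%).

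**Figure D1:**
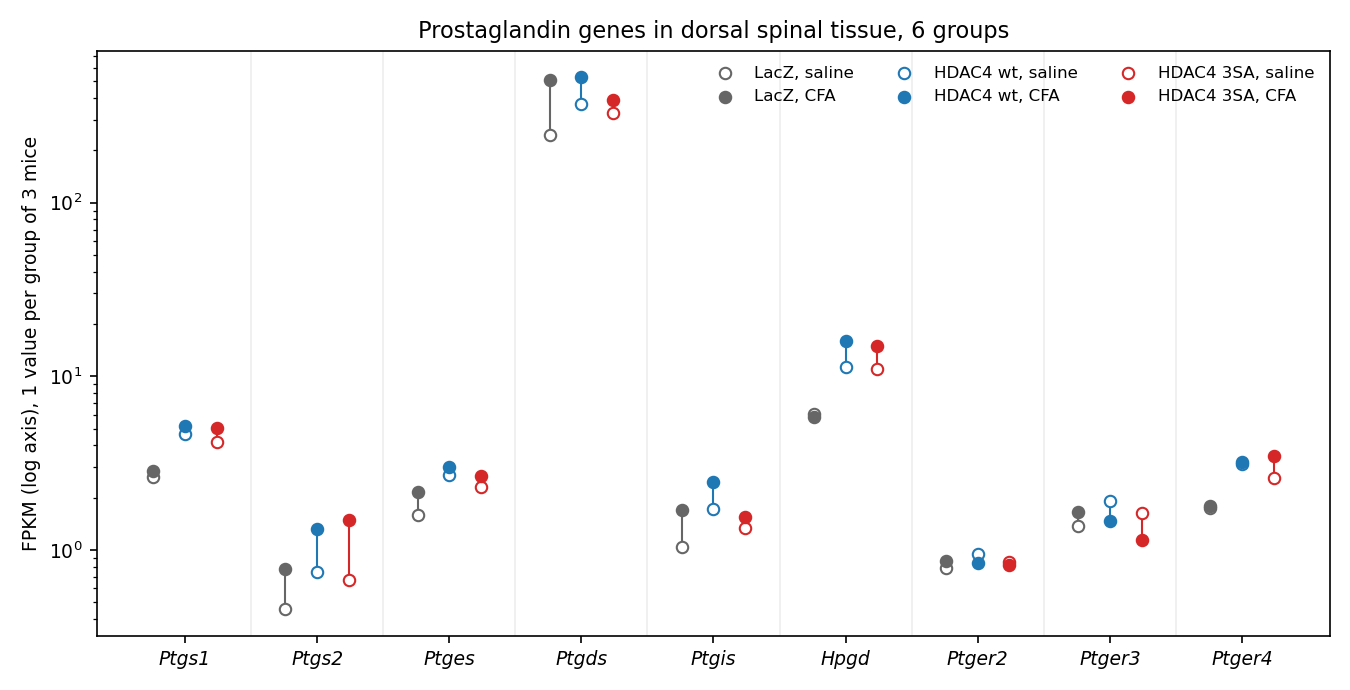
Level of each of the 9 genes in FPKM (log axis) in the 6 groups, with 1 value per group of 3 mice, open symbols for saline, filled symbols for CFA and colours for the vector. Ptgds lies between 246 and 527 FPKM, the other genes between 0.456 and 15.9 FPKM.

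CFA was set against saline within each vector to ask how peripheral inflammation moves spinal gene expression with and without extra HDAC4. All 9 members had a mean of at least 0.1 FPKM in each vector. In rAAV-LacZ mice 3 of them were higher after CFA (Ptgs2, Ptgds and Ptgis) beside 7.52% of 33091 loci, and 0 were lower beside 7.24%. In rAAV-HDAC4 wt mice 2 were higher (Ptgs2 and Ptgds) beside 13.3% of 33962 loci, and 0 were lower beside 9.87%. In rAAV-HDAC4 3SA mice 1 was higher (Ptgs2) beside 13.3% of 33783 loci, and 0 were lower beside 8.46%. With 9 genes, 1 member past the threshold is near the background share. The median log2 difference of the 9 members was 0.25 in rAAV-LacZ, 0.15 in rAAV-HDAC4 wt and 0.25 in rAAV-HDAC4 3SA mice, and that of all loci was -0.0048, 0.013 and 0.0099 in the rAAV-LacZ, rAAV-HDAC4 wt and rAAV-HDAC4 3SA tables. Of the 9 members, 6 had a positive log2 difference in all 3 vectors, 0 had a negative one in all 3, and 3 (Hpgd, Ptger2 and Ptger3) had both signs.

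**Figure D2:**
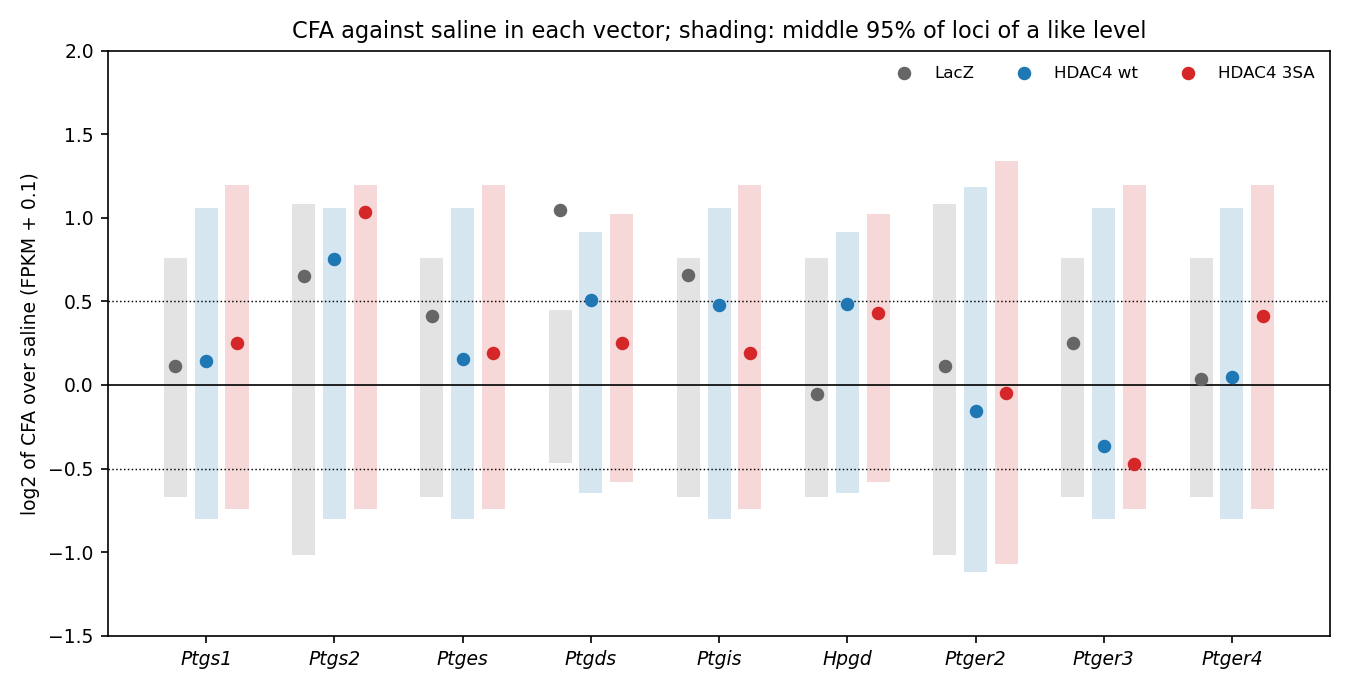
Log2 of CFA over saline (0.1 FPKM added) for each gene and vector as points, with the middle 95% of all loci of the same level band in that table as shaded bars and dotted lines at 0.5 and -0.5. Ptgds of rAAV-LacZ mice, at 1.04, is the 1 point outside its shaded bar, and Ptgs2 is above 0.5 in all 3 vectors.

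The cyclooxygenases parted. Ptgs2 (chr1:150100031-150108204, plus strand) had 0.456 FPKM with saline and 0.774 FPKM with CFA in rAAV-LacZ mice. It had 0.747 and 1.33 FPKM in rAAV-HDAC4 wt mice and 0.673 and 1.49 FPKM in rAAV-HDAC4 3SA mice. Every CFA value was above every saline value of the 3 tables, at the closest by 0.774 against 0.747 FPKM, and the share of all loci with this pattern was not computed. Ptgs2 was the 1 member past the threshold in each vector. At this low level the call depends on the constant: with 1 FPKM added the log2 difference was 0.29 in rAAV-LacZ and 0.41 in rAAV-HDAC4 wt mice, under the threshold, and 0.57 in rAAV-HDAC4 3SA mice. The CFA value was 1.70-fold the saline value in rAAV-LacZ (log2 0.65), 1.78-fold in rAAV-HDAC4 wt (0.75) and 2.21-fold in rAAV-HDAC4 3SA mice (1.04). Among loci of its own level band (0.1 to 1 FPKM in rAAV-LacZ, 1 to 10 FPKM in the others), 92.8%, 94.5% and 96.4% had a smaller log2 difference, so in each table some loci of a like level had a larger one. The difference was larger in rAAV-HDAC4 3SA than in rAAV-LacZ mice by 0.38 on the log2 scale, which was not tested. The paper also measured Ptgs2 by QRT-PCR at the same time after injection. There it reported induction by CFA with LacZ or HDAC4 wt but not with HDAC4 3SA, unlike the order of these FPKM values.

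Ptgs1 (chr2:36230359-36253797, plus strand), the constitutive cyclooxygenase, had 2.62 FPKM with saline and 2.85 FPKM with CFA in rAAV-LacZ mice, 4.67 and 5.17 FPKM in rAAV-HDAC4 wt mice, and 4.20 and 5.03 FPKM in rAAV-HDAC4 3SA mice. Its log2 differences of 0.11, 0.15 and 0.25 stayed under the threshold in each vector, although all were positive. The values of the HDAC4 groups lay above those of the rAAV-LacZ groups, across tables normalized separately and without a share of all loci that do so. Within a group, where both genes share the same normalization, the level of Ptgs1 was 5.75 times that of Ptgs2 after saline and 3.68 times after CFA in rAAV-LacZ mice. The ratio went from 6.25 to 3.90 in rAAV-HDAC4 wt mice and from 6.24 to 3.38 in rAAV-HDAC4 3SA mice. Ptgs1 therefore remained the more abundant cyclooxygenase transcript in all 6 groups, and its lead was smaller in each CFA group than in any saline group.

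Regulators known to act on Ptgs2 were read from a list of 15 genes, of which 14 were found. In rAAV-LacZ mice 4 of 13 above 0.1 FPKM were higher and 0 lower, in rAAV-HDAC4 wt mice 1 of 14 was higher and 0 lower, and in rAAV-HDAC4 3SA mice 8 of 14 were higher and 0 lower, beside 7.52%, 13.3% and 13.3% of all loci higher. Of the 9 microglial markers 0, 0 and 7 were higher, with sums 1.13-fold, 1.26-fold and 1.82-fold after CFA. Of the 10 neutrophil markers 9, 0 and 0 were higher, with sums 8.17-fold, 0.708-fold and 0.636-fold, and the part of either cell type in these counts was not tested. Cebpd, a C/EBP factor induced by cytokines, was the 1 listed gene higher in every vector, with 2.04 and 3.84 FPKM in rAAV-LacZ, 6.38 and 10.3 FPKM in rAAV-HDAC4 wt, and 6.05 and 11.3 FPKM in rAAV-HDAC4 3SA mice. Its relative Cebpb had 4.39 and 6.29 FPKM in rAAV-LacZ mice and 8.26 and 12.9 FPKM in rAAV-HDAC4 3SA mice. Il1r1, the receptor of interleukin-1, was higher in rAAV-LacZ mice (1.22 to 2.37 FPKM) and in rAAV-HDAC4 3SA mice (3.10 to 4.50 FPKM). Tnfrsf1a, the main receptor of tumour necrosis factor, went from 23.6 to 54.6 FPKM in rAAV-HDAC4 3SA mice and from 9.32 to 10.7 FPKM in rAAV-LacZ mice. Il1b, which encodes interleukin-1 beta, went from 0.909 to 1.45 FPKM in rAAV-HDAC4 3SA mice (log2 0.61), and from 0.0842 to 0.50 FPKM in rAAV-LacZ mice, a larger log2 difference (1.70) at a lower level. Myd88, an adaptor of its receptor, went from 6.75 to 10.3 FPKM in rAAV-HDAC4 3SA mice. Whether any of these bears on Ptgs2 was not tested.

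Among the terminal synthases, Ptgds (chr2:25466326-25469897, minus strand), an enzyme of the leptomeninges and oligodendrocytes that is also a major protein of the cerebrospinal fluid, showed the largest difference. It had 246 FPKM with saline and 508 FPKM with CFA in rAAV-LacZ mice, 371 and 527 FPKM in rAAV-HDAC4 wt mice, and 328 and 390 FPKM in rAAV-HDAC4 3SA mice. All CFA values were above all saline values, a pattern whose share over all loci was not computed, and the rAAV-LacZ saline value was the lowest. The CFA value was 2.06-fold the saline value in rAAV-LacZ (log2 1.04), 1.42-fold in rAAV-HDAC4 wt (0.51) and 1.19-fold in rAAV-HDAC4 3SA mice (0.25). Of loci with at least 10 FPKM, 99.5% had a smaller log2 difference in rAAV-LacZ, 94.4% in rAAV-HDAC4 wt and 85.2% in rAAV-HDAC4 3SA mice. The log2 difference was thus smaller than in rAAV-LacZ by 0.54 in rAAV-HDAC4 wt and by 0.79 in rAAV-HDAC4 3SA mice, without a test. The saline levels lay apart by up to 1.51-fold and the CFA levels by up to 1.35-fold, so both ends of the comparison varied between the vectors.

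Ptgis (chr2:167201526-167240653, minus strand), an enzyme of vessel walls and fibroblasts, followed the same order at a far lower level. It had 1.05 and 1.71 FPKM in rAAV-LacZ, 1.73 and 2.45 FPKM in rAAV-HDAC4 wt, and 1.34 and 1.55 FPKM in rAAV-HDAC4 3SA mice. The CFA value was 1.63-fold (log2 0.66), 1.42-fold (0.48) and 1.15-fold (0.19) the saline value, with 96.6%, 87.4% and 72.1% of loci of 1 to 10 FPKM below. Summed over the 3 rows of the name, the log2 differences were 0.53, 0.28 and 0.13. Over the 6 groups the log2 levels of Ptgds and Ptgis had a Pearson correlation of 0.91, a description over 6 group values of which pairs share a table.

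Markers of fibroblasts of the meninges and vessels moved beside these genes. Igf2, whose row lies at different places in the tables, was left out of the list. Of the other 8 markers, 8 had a positive log2 difference in rAAV-LacZ mice, 3 of them past the threshold, in rAAV-HDAC4 wt mice 6 were positive and 1 past it, and in rAAV-HDAC4 3SA mice 5 were positive and 0 of the 7 above 0.1 FPKM past it. Col1a1, a fibrillar collagen, had 12.3 and 19.0 FPKM in rAAV-LacZ, 17.6 and 23.2 FPKM in rAAV-HDAC4 wt, and 15.8 and 19.1 FPKM in rAAV-HDAC4 3SA mice. Dcn, which encodes decorin, had 69.1 and 89.6 FPKM, 91.8 and 83.3 FPKM, and 81.5 and 88.9 FPKM in the same order. The sum of the 8 markers went from 140 to 188 FPKM in rAAV-LacZ (1.35-fold), from 190 to 198 FPKM in rAAV-HDAC4 wt (1.04-fold) and from 172 to 183 FPKM in rAAV-HDAC4 3SA mice (1.06-fold). The sum of 8 Schwann cell markers was 1.54-fold after CFA in rAAV-LacZ (6 of 8 higher), 0.986-fold in rAAV-HDAC4 wt (0 past the threshold) and 0.623-fold in rAAV-HDAC4 3SA mice (6 of 8 lower). The Ptgds difference in rAAV-LacZ mice was larger than that of either marker sum, and the part of these cells in it was not tested.

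**Figure D3:**
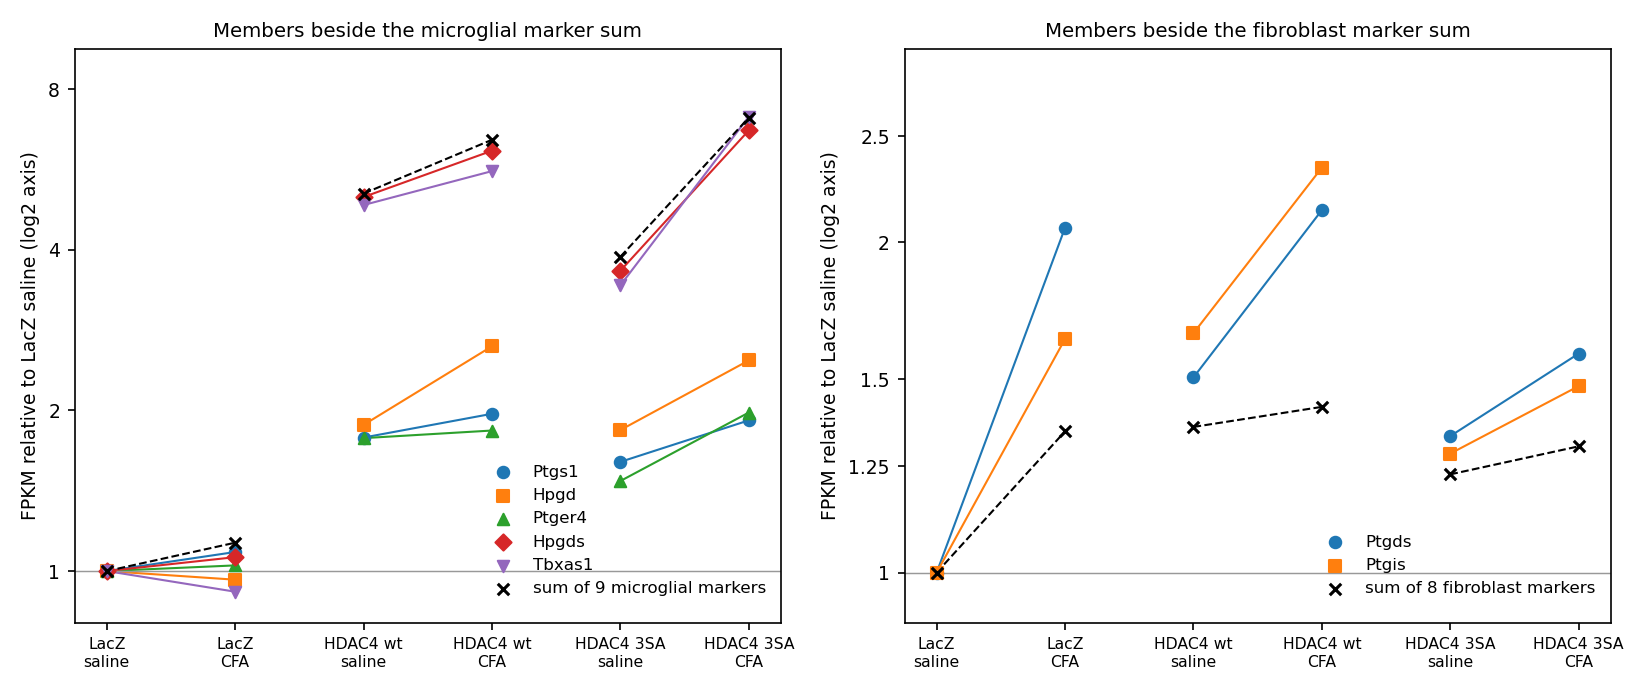
Levels relative to rAAV-LacZ saline (log2 axis) in the 6 groups, each with 1 value, for Ptgs1, Hpgd, Ptger4 and the pathway genes Hpgds and Tbxas1 beside the sum of 9 microglial markers (left), and for Ptgds and Ptgis beside the sum of 8 fibroblast markers (right). In the HDAC4 groups Hpgds and Tbxas1 lie close to the microglial sum, whereas Ptgs1, Hpgd and Ptger4 lie between it and the rAAV-LacZ saline level.

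Ptges (chr2:30889472-30929807, minus strand), which makes PGE2 from the product of COX-2, had 1.59 and 2.15 FPKM in rAAV-LacZ mice, 2.69 and 3.00 FPKM in rAAV-HDAC4 wt mice, and 2.32 and 2.66 FPKM in rAAV-HDAC4 3SA mice. It was higher after CFA in each vector by 0.41, 0.15 and 0.19 on the log2 scale, under the threshold each time, and 92.5% of loci of 1 to 10 FPKM had a smaller difference in rAAV-LacZ mice. The CFA value of rAAV-LacZ mice lay under all HDAC4 values, saline included, again across tables and without a share of all loci. The other PGE synthases of the pathway list, Ptges2 and Ptges3, had log2 differences between -0.04 and 0.13 in the 3 vectors.

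Hpgd (chr8:56294474-56321052, plus strand), which breaks PGE2 down, went the other way between the vectors. It had 6.03 FPKM with saline and 5.80 FPKM with CFA in rAAV-LacZ mice, 11.3 and 15.9 FPKM in rAAV-HDAC4 wt mice, and 11.1 and 15.0 FPKM in rAAV-HDAC4 3SA mice. The CFA value was 0.963-fold the saline value in rAAV-LacZ (log2 -0.05), 1.40-fold in rAAV-HDAC4 wt (0.49) and 1.35-fold in rAAV-HDAC4 3SA mice (0.43), so none passed the threshold, although 94.2% and 92.1% of loci with at least 10 FPKM had a smaller difference in the HDAC4 tables. After CFA the rAAV-HDAC4 wt value was 2.74 times and the rAAV-HDAC4 3SA value 2.58 times the rAAV-LacZ value, the widest gap between vectors of any member. Set against Ptges within each group, Hpgd stood at 3.79 times its level after saline and 2.70 times after CFA in rAAV-LacZ mice. The ratio went from 4.21 to 5.30 in rAAV-HDAC4 wt and from 4.78 to 5.62 in rAAV-HDAC4 3SA mice. The lead of Hpgd over Ptges was thus smaller after CFA than after saline in rAAV-LacZ mice, and larger in both HDAC4 tables, with no test of the difference. It holds for Ptges alone, since Ptges3, at 46.5 to 52.6 FPKM, was above Hpgd in every group.

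Among the receptors, Ptger4 (EP4, chr15:5233317-5244267, minus strand) had 1.75 and 1.79 FPKM in rAAV-LacZ, 3.11 and 3.21 FPKM in rAAV-HDAC4 wt, and 2.58 and 3.47 FPKM in rAAV-HDAC4 3SA mice. Its log2 difference was 0.03 in rAAV-LacZ, 0.05 in rAAV-HDAC4 wt and 0.41 in rAAV-HDAC4 3SA mice, but -0.03, 0.14 and 0.06 when the 5 rows of the name were summed, so the larger value in rAAV-HDAC4 3SA mice rests on the row used. Ptger3 (EP3, chr3:157566785-157644764, plus strand) had 1.38 and 1.66 FPKM in rAAV-LacZ, 1.92 and 1.47 FPKM in rAAV-HDAC4 wt, and 1.62 and 1.14 FPKM in rAAV-HDAC4 3SA mice. Its log2 difference was 0.25 in rAAV-LacZ mice, with 85.8% of loci of its band below, and -0.36 in rAAV-HDAC4 wt and -0.47 in rAAV-HDAC4 3SA mice, with 9.53% and 6.20% below. Ptger2 (EP2, chr14:44988652-45002953, plus strand) was the steadiest member, with values between 0.786 and 0.942 FPKM in all 6 groups and log2 differences of 0.11, -0.15 and -0.05. A second row at the coordinates of Ptger3 held 0.458 to 0.795 FPKM, the tables give no strand, and with both rows summed its log2 differences were 0.15, -0.23 and -0.38.

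Shares within a group do not depend on scaling between tables. Of the summed FPKM of the 3 receptor genes, Ptger4 made up 44.7% after saline and 41.6% after CFA in rAAV-LacZ mice, 52.1% and 58.2% in rAAV-HDAC4 wt mice, and 51.1% and 63.9% in rAAV-HDAC4 3SA mice. Ptger3 made up 35.3% and 38.5%, 32.1% and 26.6%, and 32.0% and 21.0% in the same order. The share of Ptger4 was thus larger after CFA in both HDAC4 tables and smaller in the rAAV-LacZ table, on the rows used. Ptger2, the other receptor that raises cyclic AMP, made up 20.1% and 19.9%, 15.8% and 15.2%, and 16.9% and 15.1%. Glra3, the glycine receptor subunit that EP2 signalling acts on and chosen here after its values were seen, had 8.41 and 8.20 FPKM in rAAV-LacZ, 8.72 and 7.19 FPKM in rAAV-HDAC4 wt, and 8.43 and 5.96 FPKM in rAAV-HDAC4 3SA mice. The neuronal marker sum was 0.946, 0.880 and 0.754 of the saline sum after CFA in the 3 vectors, and 0, 0 and 1 of the 8 markers were lower past the threshold. Of 6 markers of dorsal root ganglion neurons 3 were found, without Scn10a, Scn11a and Mrgprd. Their sum went from 21.7 to 27.2 FPKM, from 12.1 to 31.9 FPKM and from 21.9 to 50.9 FPKM after CFA. Most of it was Prph, on 1 of 2 rows, with 20.8 and 26.3, 8.81 and 21.9, and 15.6 and 43.5 FPKM. Avil, also on 1 of 2 rows, had 0.933 and 0.853, 3.16 and 9.96, and 6.28 and 6.93 FPKM, so the sum rests largely on Prph. The part of spinal or ganglion neurons in the Ptger3 and Glra3 values was not tested.

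**Figure D4:**
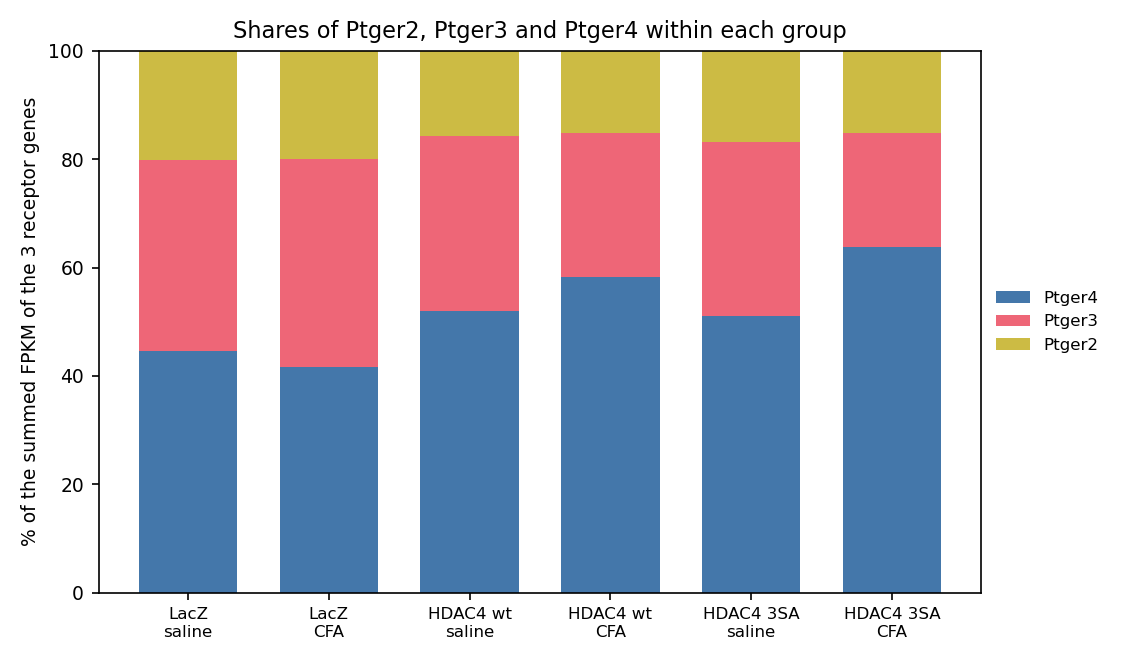
Share of each of the 3 receptor genes in their summed FPKM, in percent, for the 6 groups with 1 value each. Ptger4 goes from 51.1% to 63.9% and Ptger3 from 32.0% to 21.0% between saline and CFA in rAAV-HDAC4 3SA mice.

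The members also differed in level between the vectors before inflammation, in tables that were normalized separately. In the saline groups all 9 were lowest in rAAV-LacZ mice and highest in rAAV-HDAC4 wt mice, with rAAV-HDAC4 3SA mice between them, an order that 34.2% of 17711 loci with a mean of at least 1 FPKM also had. Of the 9, 7 reach that level, all but Ptgs2 and Ptger2. The ratio of rAAV-HDAC4 wt to rAAV-LacZ ran from 1.20 for Ptger2 to 1.88 for Hpgd, with 1.78 for Ptgs1, 1.77 for Ptger4, 1.69 for Ptges, 1.65 for Ptgis, 1.64 for Ptgs2, 1.51 for Ptgds and 1.39 for Ptger3. A ratio over 1.5 was found for 6 of these 7 members and at 13.1% of the same loci. That of Ptgds fell to 1.48, under 1.5, with the division by a median described below. After CFA, 8 members had a mean of at least 1 FPKM, and rAAV-LacZ mice were lowest for 5 of the 8, beside 44.9% of 17914 loci, and the order seen after saline held for 3 of the 8, beside 20.1%. For Ptgds, Ptgis, Ptger2 and Ptger3 the rAAV-HDAC4 3SA mice had the lowest CFA value, 0.768, 0.906, 0.957 and 0.687 times that of rAAV-LacZ mice. Division by the median FPKM of loci with at least 5 FPKM in every group left these ratios close to the same, for example 1.85 for Hpgd and 1.18 for Ptger2 between rAAV-HDAC4 wt and rAAV-LacZ saline mice.

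Ptgs1, Hpgd and Ptger4 moved together over the 6 groups, with Pearson correlations of their log2 levels of 0.98 to 0.99 for Ptgs1 with Hpgd and Ptger4 and 0.97 for Hpgd with Ptger4, again over 6 values that share 3 tables. COX-1 and EP4 are well known in microglia. The sum of 9 microglial markers was 169 and 191 FPKM in rAAV-LacZ, 862 and 1088 FPKM in rAAV-HDAC4 wt, and 657 and 1196 FPKM in rAAV-HDAC4 3SA mice, and 0 of the 9 markers were at 0 in any group. C1qa, a complement gene of microglia, had 37.5 FPKM in rAAV-LacZ saline mice and 360 FPKM in rAAV-HDAC4 wt saline mice, but P2ry12, a gene of resting microglia, had 11.1 and 13.9 FPKM. Ptgs1 made up 1.55% of the marker sum in rAAV-LacZ saline mice and 0.541% in rAAV-HDAC4 wt saline mice, so it stood higher in the HDAC4 groups by less than the sum did. The sum of 6 astrocyte markers was 891 FPKM in rAAV-LacZ saline and 1326 FPKM in rAAV-HDAC4 wt saline mice, with 3 markers higher and 3 lower, and Gfap, the filament protein of reactive astrocytes, had 389 and 807 FPKM. The part of glia in the levels of these members was not tested.

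Of 101 other genes of the pathway in 6 lists, 92 were found. In rAAV-LacZ mice 16 of 91 above 0.1 FPKM were higher and 3 lower, in rAAV-HDAC4 wt mice 4 and 4 of 92, and in rAAV-HDAC4 3SA mice 19 and 2 of 91, that is 17.6%, 4.35% and 20.9% higher beside the background shares of 7.52%, 13.3% and 13.3% of loci. Among 10 other enzymes of the pathway, 0 were higher in rAAV-LacZ and in rAAV-HDAC4 wt mice and 3 in rAAV-HDAC4 3SA mice, and 0, 1 and 1 were lower. The higher ones were Hpgds, the haematopoietic prostaglandin D synthase (6.05 to 11.1 FPKM), Tbxas1, thromboxane synthase (4.13 to 8.54 FPKM), and Ptgr1, a reductase that inactivates prostaglandins (2.95 to 4.30 FPKM). Hpgds and Tbxas1 are microglial enzymes in the spinal cord, and their saline levels in rAAV-HDAC4 wt mice, 8.32 and 5.83 FPKM, stood beside 1.66 and 1.20 FPKM in rAAV-LacZ mice. Akr1b3, an aldose reductase that can form prostaglandin F2alpha, was lower after CFA in rAAV-HDAC4 wt (27.0 to 17.1 FPKM) and rAAV-HDAC4 3SA mice (43.4 to 29.2 FPKM).

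Among 12 other receptors, transporters and partners, 3 were higher and 1 lower in rAAV-LacZ, 2 and 1 in rAAV-HDAC4 wt, and 1 and 0 of 11 in rAAV-HDAC4 3SA mice. Of all loci, 7.52%, 13.3% and 13.3% were higher and 7.24%, 9.87% and 8.46% lower, so the counts in the HDAC4 tables are near the background share. Tbxa2r, the thromboxane receptor, went from 1.19 to 1.79 FPKM in rAAV-LacZ and from 1.78 to 1.75 FPKM in rAAV-HDAC4 3SA mice. Ptger1, which encodes the calcium-coupled EP1 receptor, was the 1 higher in rAAV-HDAC4 3SA mice (9.47 to 13.6 FPKM), but 2 rows of the name share a place and its level is uncertain. Slc22a6, an organic anion transporter that carries prostaglandins, named here after its values were seen since it lies under 1 FPKM, had 0.0438 and 0.769 FPKM in rAAV-LacZ, 0.0605 and 0.388 FPKM in rAAV-HDAC4 wt, and 0.0547 and 0.0752 FPKM in rAAV-HDAC4 3SA mice. Of 19 genes of arachidonate release, 1 was higher and 1 lower in rAAV-LacZ, 1 and 0 in rAAV-HDAC4 wt, and 2 and 0 in rAAV-HDAC4 3SA mice. These counts were near or under the same shares of all loci. Anxa1, annexin A1, which restrains phospholipase A2, went from 1.49 to 4.00 FPKM in rAAV-LacZ and from 3.50 to 5.00 FPKM in rAAV-HDAC4 3SA mice. Pla2g15, the lysosomal phospholipase A2, went from 12.8 to 19.1 FPKM in rAAV-HDAC4 3SA mice. The values of Pla2g4e in rAAV-LacZ (3.09 to 1.22 FPKM) and Dagla in rAAV-HDAC4 wt mice (32.2 to 48.1 FPKM) rest on 1 of 5 and 1 of 2 rows with these names and are uncertain.

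The leukotriene branch, which uses the same arachidonate, had 8 of 16 genes higher and 1 lower in rAAV-LacZ, 0 and 1 in rAAV-HDAC4 wt, and 5 and 0 in rAAV-HDAC4 3SA mice, beside 7.52%, 13.3% and 13.3% of all loci higher. Alox5ap, which presents arachidonate to 5-lipoxygenase, went from 2.38 to 4.05 FPKM in rAAV-LacZ and from 6.01 to 9.02 FPKM in rAAV-HDAC4 3SA mice. In rAAV-LacZ mice the epidermal lipoxygenase Alox12b went from 0.899 to 1.31 FPKM, and in rAAV-HDAC4 3SA mice from 1.27 to 1.05 FPKM. The lipoxygenase Alox5 itself went from 1.05 to 1.77 FPKM in rAAV-HDAC4 3SA mice (log2 0.70) and from 0.402 to 0.691 FPKM in rAAV-LacZ mice (0.65). Ltc4s, the leukotriene C4 synthase, went from 3.00 to 4.73 FPKM in rAAV-HDAC4 3SA mice and from 1.32 to 1.90 FPKM in rAAV-LacZ mice, just under the threshold. Ggt5, which converts leukotriene C4, went from 1.65 to 2.62 FPKM in rAAV-HDAC4 3SA mice. Dpep2, a dipeptidase of leukotriene D4, had 3.94 and 2.09 FPKM in rAAV-LacZ and 1.26 and 3.51 FPKM in rAAV-HDAC4 3SA mice. Several other genes past the threshold in rAAV-LacZ mice lay under 1 FPKM. Alox5 and Alox5ap are typical of neutrophils, whose 10 markers had sums of 14.5 and 118 FPKM in rAAV-LacZ, 44.4 and 31.4 FPKM in rAAV-HDAC4 wt, and 65.3 and 41.5 FPKM in rAAV-HDAC4 3SA mice. The microglial markers, with 0, 0 and 7 of 9 higher in the 3 vectors, had a sum 1.82-fold after CFA in rAAV-HDAC4 3SA mice, and the part of either cell type was not tested. Of 21 genes of EP receptor signalling and its effectors, 0 were higher in any vector, and 1 was lower in rAAV-HDAC4 wt and in rAAV-HDAC4 3SA mice, Glrb, the glycine receptor beta subunit, whose reads are split over 3 rows.

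For 3 members the loci most alike in pattern over the 6 groups were listed. The measure was the Pearson correlation of log2 levels with 0.1 FPKM added, among single-gene loci with a mean of at least 1 FPKM. For Ptgs2 these were Sepn1, Pnpla2, C1ql2, 1700016P03Rik and Fbxl8, with correlations of 0.99, and 3.19% of 16250 loci had one over 0.9. For Ptgds they were Nbl1 (0.99), Nop16 (0.99), Zmat5 (0.98), Slc13a3 (0.98) and Thbd (0.98), with 0.400% over 0.9. Slc13a3, a dicarboxylate transporter, is itself on the fibroblast list, with 7.78 and 9.36 FPKM in rAAV-LacZ and 8.21 and 9.01 FPKM in rAAV-HDAC4 3SA mice. For Ptges, Mmp23, Pydc3, Snx15, Anxa3 and Per2 came first, but 10.6% of loci passed 0.9, so a high value over 6 groups is common for that pattern.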

How the data were processed

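Poly-A RNA of dorsal spinal tissue from 18 mice was sequenced as strand-specific single-end reads of 50 bp. Per the labels, the reads were processed with Bowtie, TopHat, Cufflinks and Cuffdiff on mm10/GRCm38. The authors deposited a Cuffdiff table for each vector, all listing the same 34579 locus identifiers, of which 386 differed in place or name between the tables. Deposited FPKM levels are Cuffdiff estimates, 1 per group of 3 mice, normalized within a vector, so depth and spread between mice are unknown. The tables also hold the authors' log2 fold change, test statistic, p-value, q-value and call, which are their comparisons and were not used. Deposited locus starts count from 0 and are given 1-based.

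Values were read with Python 3.11.15 and pandas 2.3.3. The computed measure was the log2 of CFA over saline with 0.1 FPKM added, over loci with a mean of at least 0.1 FPKM, within level bands cut at 1 and 10 FPKM. The counting was checked on saline values multiplied by known factors without noise, which tests the arithmetic only and not calls under variation between mice. Planned tests across mice could not be run on group values. Members, gene lists and tests were chosen with earlier results of these data known, and the motifs and the fibroblast list without Igf2 after the values were seen. Results of some listed genes are not reported here. Pathway genes were named where they had at least 1 FPKM and passed the threshold, up to 5 per list and vector, some with values in other vectors, and otherwise as the 2 most abundant of a list. Defining markers of a cell type and the 5 loci most alike a member were named whether or not they passed. Ptges2 and Ptges3 were named for their function, outside this rule, after their values were seen. Loci were compared between tables where all 3 gave the same place and name (386 of 34579 did not). Exons are from GENCODE M21 and promoters from RefSeq, both on GRCm38.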

Additional observations from a re-analysis of the deposited data

Results flagged for a closer look

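The log2 difference between CFA and saline had opposite signs in different vectors for a pair of members by more than the threshold of 0.5. That of Hpgd was higher in HDAC4 wt than in LacZ mice by 0.54. That of Ptger3 was lower than in LacZ mice, with a difference of -0.61 for HDAC4 wt and -0.72 for HDAC4 3SA. With 1 FPKM added the Ptger3 differences were -0.40 and -0.45, and with all rows of the name summed -0.38 and -0.53, so that for HDAC4 wt fell under the threshold both times and that for HDAC4 3SA with 1 FPKM added. That of Hpgd stayed at 0.50 or above under the same alternatives. None of these differences was tested, since the tables hold 1 value per group.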

How the results depend on the processing

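Each value is an estimate over 3 mice with unknown error, and Ptgs2 and Ptger2 lie near or below 1 FPKM, where the constant added before the log sets the size of a difference. The 1 log2 difference of a member that changed sign was that of Ptger4 in LacZ mice, from 0.03 to -0.03 with all rows of the name summed, far under the threshold. With no constant added, 2 members passed the threshold in HDAC4 3SA mice (Ptgs2, and Ptger3 as lower) and 3 in HDAC4 wt mice (Ptgis also, at 0.50), and Ptgs2 in HDAC4 3SA mice, at 1.14, was above Ptgds in LacZ mice, at 1.04. With 1 FPKM added, 1 member passed in LacZ and 1 in HDAC4 wt mice, Ptgds each time, while Ptgs2 was at 0.29 and 0.41 there and Ptgis at 0.40 in LacZ mice. With the threshold at log2 1, 1 member passed in LacZ (Ptgds) and 0 in HDAC4 wt mice. The number of members past the threshold stayed within 1.5 times under no minimum level, a minimum of 1 FPKM, centring on the median of loci of at least 5 FPKM, and sums over all rows of a name. No paired analysis was possible because the tables hold 1 value per group, and leaving out a mouse was not possible for the same reason.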
